A study of Carassius auratus with 6 samples.

Results

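The 10 transcripts described here are those of the mitochondrial genome that encode subunits of complex I (MT-ND1, MT-ND2, MT-ND3, MT-ND4, MT-ND4L, MT-ND5 and MT-ND6) and of cytochrome c oxidase (mt-co1, mt-co2 and mt-co3). They were taken by gene name, ignoring case, and each was a single entry among the 47544 genes of the table. They were measured in liver RNA of crucian carp (Carassius auratus), in 3 libraries of wild-type fish under hypoxia stress for 12 h and 3 libraries of wild-type control fish. Age, sex and the oxygen level were not given in the sources used here, nor was it stated whether each library came from a separate animal. The p-values therefore speak for these libraries only. Those of limma also draw on the variance of other genes, and not on each gene's own spread alone. The comparison asks how the liver's messenger RNA differs after 12 h of low oxygen.

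Animal mitochondria carry a small circular genome of their own, which is copied into long precursor RNAs and cut at the transfer RNAs that lie between the genes. In vertebrates all but MT-ND6 of the transcripts described here come from the same strand, and MT-ND6 comes from the opposite one. Complex I takes electrons from NADH into the respiratory chain, and cytochrome c oxidase passes them to oxygen at its end. The encoded ND proteins form part of the proton-pumping membrane arm of complex I, and the 3 oxidase proteins form the core of cytochrome c oxidase, with the oxygen-binding site in mt-co1.

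The deposited values were read counts divided by a size factor for each library, called normalized counts here, and whole reads could be recovered from them. Recovered reads per library lay between 16939689 and 22782649 in the hypoxia libraries and between 15734847 and 17540766 in the control libraries. Control replicate 2 stood apart from the rest of its group. On the log2 scale its mean correlation with the other controls was 0.881, against 0.906 for control replicate 1 and 0.910 for control replicate 3. The liver label fitted the hepatocyte markers, of which 14 of 17 symbols were found, with the fibrinogen chain transcript fgb at 310001 to 638773 normalized counts in hypoxia libraries and at 344452 to 641836 in control libraries. Not every hepatocyte marker was level between the groups. The marker fabp10a was at 1136 to 2401 in hypoxia libraries and at 5315 to 13053 in control libraries. Copies of hpx (113108436 and 113108520) changed by 8.02 and 8.48 on the log2 scale, and an APOA1 copy (113116733), annotated as a pseudogene, by -2.27. Whole markers did not follow these single copies. Summed over 3 copies, hpx was at 62082 to 160360 in hypoxia libraries and at 153378 to 261755 in control libraries. Summed over 6 copies, apoa1 was at 53198 to 87710 in hypoxia libraries and at 62847 to 143820 in control libraries. Markers of the exocrine pancreas, which lies within the liver of carp, summed to 50983 to 158117 normalized counts in hypoxia libraries and to 372 to 120920 in control libraries, with control replicate 2 the lowest and hypoxia replicate 2 the highest. Hepatocyte markers summed to 1471497 in hypoxia replicate 2, against 3003043 and 2881614 in hypoxia replicates 1 and 3 and 1936685 to 3141836 in control libraries. Each tested complex I transcript had its lowest hypoxia value in hypoxia replicate 2. Of 64 tested copies of hepatocyte markers limma called 3 lower and 2 higher (0.417% and 1.83% of all genes tested), and of 25 for exocrine pancreas it called 0 (1 lower and 3 higher at an unadjusted p under 0.05, 0 with edgeR, 1 lower with DESeq2). The part of these tissue differences in the results below was not tested.

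MT-ND2, MT-ND4, MT-ND4L, MT-ND5 and MT-ND6 of complex I fell after hypoxia, with mean levels at 5.63% to 15.98% of the control means. The means of the oxidase transcripts were at 39.2% to 55.8% of the control means, and none of those 3 passed the same test. Of the 10 transcripts, 9 had a mean of at least 1 normalized count over the 6 libraries and were tested. Of these 9, 5 fell and 0 rose (limma's moderated test on log2 of the normalized count plus 1, adjusted p under 0.05 over all 41045 genes tested). Among all genes tested, 0.417% fell and 1.83% rose, and the transcripts were chosen with earlier results of these data known. In 8 of the 9, every hypoxia library lay below every control library, as was the case for 12.2% of all genes tested. The median change of the 9 was -2.80 on the log2 scale, against 0.00 over all genes tested, and all 9 changes were below 0. The edgeR quasi-likelihood test on the recovered reads also called 5 lower and 0 higher, with 0.404% of all genes lower. DESeq2 called 8 lower and 0 higher, with 3.15% of all genes lower. At an unadjusted p under 0.05, limma had 7 lower and 0 higher. The share of all genes at that unadjusted threshold was not computed, for this or any other count given at it. In bulk tissue, fewer cells rich in mitochondria and less mitochondrial RNA in each cell cannot be told apart.

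The 10 transcripts together took 0.248%, 0.348% and 0.341% of all recovered reads in hypoxia replicates 1 to 3, against 0.629%, 0.50% and 0.685% in control replicates 1 to 3. The lowest control library, with an exact 95% binomial interval of 0.497% to 0.504%, lay above the highest hypoxia library, at 0.345% to 0.351%. These intervals cover counting error only. Nearly all of these reads came from the oxidase. The 7 complex I transcripts had 530, 493 and 1149 reads in the hypoxia libraries and 2725, 3005 and 2861 reads in the control libraries. The 3 oxidase transcripts had 41410, 60080 and 76578 reads in the hypoxia libraries and 96315, 84762 and 112069 reads in the control libraries.

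**Figure D1:**
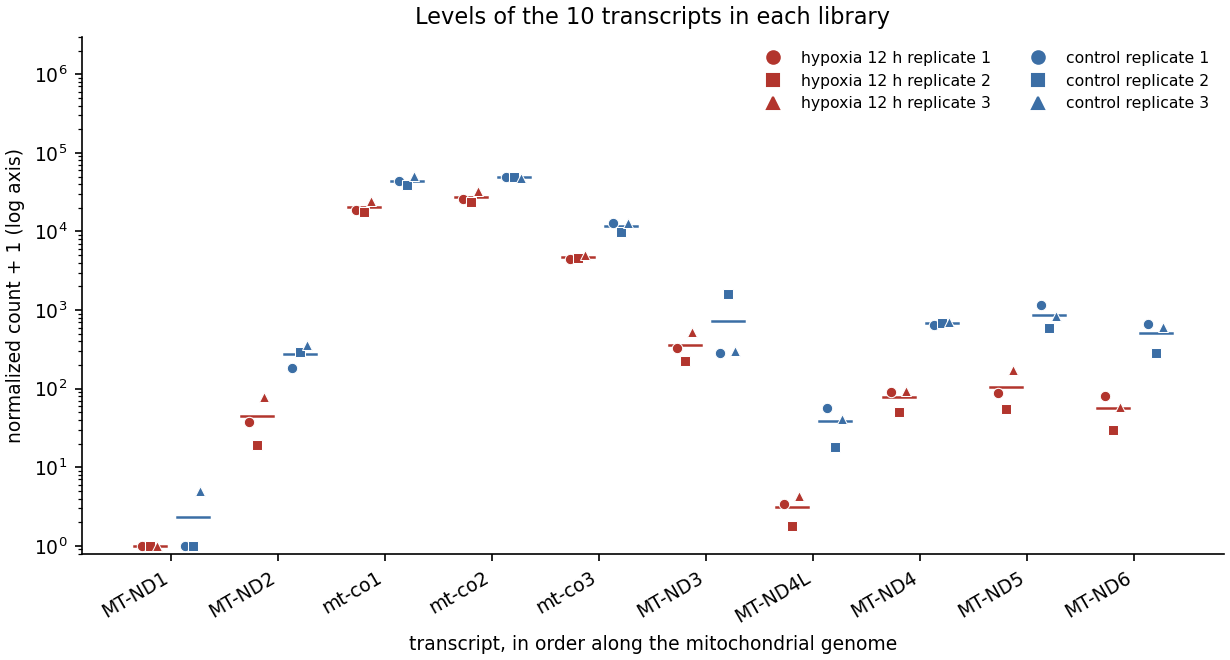
Normalized count plus 1 (log axis) of each of the 10 transcripts in each library, in their order along the mitochondrial genome, with hypoxia libraries in red left of control libraries in blue and a bar at each group mean. In 8 transcripts the 3 hypoxia libraries sit below the 3 control libraries, MT-ND3 has a single high control library at 1603, and MT-ND1 is at 0 in 5 of 6 libraries.

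Among the complex I transcripts, MT-ND4 (808421), which encodes a large subunit of the proton-pumping arm, had the smallest control SD relative to its mean. It was at 88.6, 48.9 and 93.6 normalized counts in hypoxia libraries and at 651, 690 and 704 in control libraries, so the groups were far apart. Its mean was 77.0 ± 24.5 after hypoxia and 681 ± 27.6 in controls (SD, n = 3 each), a log2 change of -3.18 ± 0.29 (SE, limma, adjusted p = 0.00097). This call held in all 16 alternative fits, with adjusted p up to 0.0089.

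MT-ND5 (808419) encodes another large subunit of that arm. It was at 87.4, 54.3 and 174 normalized counts in hypoxia libraries and at 1165, 588 and 847 in control libraries. The highest hypoxia library, replicate 3, remained below the lowest control library, replicate 2, and the log2 change was -3.14 ± 0.43 (limma, adjusted p = 0.0070). The call held in all 16 alternative fits, the highest adjusted p being 0.0496 without hypoxia replicate 1.

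MT-ND6 (808424) is the member encoded on the opposite strand in vertebrates. It was at 79.2, 29.1 and 57.0 normalized counts in hypoxia libraries and at 655, 283 and 613 in control libraries. Its groups did not overlap, and its log2 change was -3.23 ± 0.44 (limma, adjusted p = 0.0070), with adjusted p up to 0.0391 over the 16 alternative fits. Whether the counting used strand was not given in the sources used here, so reads of MT-ND6 and of the opposite strand cannot be told apart.

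MT-ND4L (808426) encodes a small subunit, and its gene overlaps that of MT-ND4. It had 2, 1 and 4 reads in hypoxia libraries and 51, 15 and 40 reads in control libraries. As normalized counts these were 2.36, 0.765 and 3.25 in hypoxia libraries and 56.0, 17.3 and 40.04 in control libraries. The log2 change was -3.58 ± 0.65 (limma, adjusted p = 0.027). The call rests on few reads after hypoxia and was lost on leaving out any 1 library other than control replicate 2 (5 of 6 fits, the highest adjusted p being 0.11). With a replicate block it was also lost (adjusted p = 0.063).

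MT-ND2 (808429) encodes a further subunit of the membrane arm. It was at 36.6, 18.3 and 78.1 normalized counts in hypoxia libraries and at 181, 291 and 360 in control libraries. The groups were apart, and the log2 change was -2.80 ± 0.50 (limma, adjusted p = 0.026). Its call was lost in 3 of 6 fits that left out 1 library, with adjusted p of 0.11 without hypoxia replicate 1, 0.072 without hypoxia replicate 2 and 0.11 without control replicate 3.

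**Figure D2:**
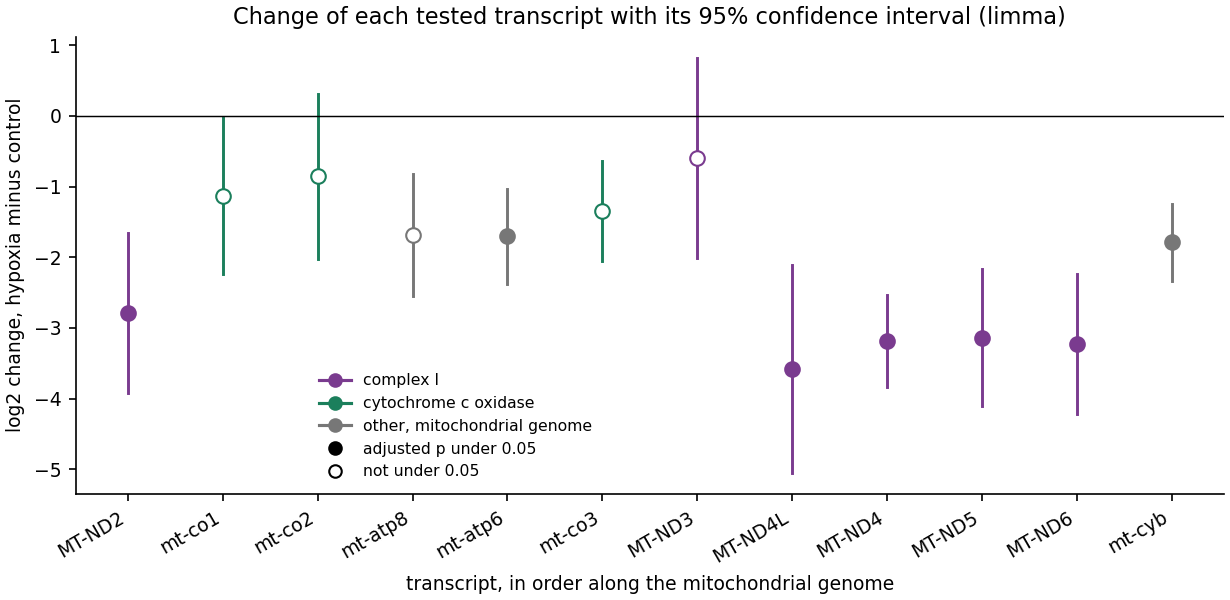
Log2 change, hypoxia minus control, of the 12 tested transcripts of the mitochondrial genome in gene order, with limma's 95% confidence interval and filled points for an adjusted p under 0.05. The points of MT-ND2, MT-ND4L, MT-ND4, MT-ND5 and MT-ND6 lie between -2.80 and -3.58, and those of the 3 oxidase transcripts between -0.86 and -1.34.

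MT-ND3 (808425), a small subunit that lies where the arms of complex I meet, did not follow the others. It was at 332, 226 and 529 normalized counts in hypoxia libraries and at 287, 1603 and 296 in control libraries. The groups overlapped, since control replicates 1 and 3 lay within the hypoxia range and control replicate 2 lay far above it. The recovered reads were 281, 295 and 650 in hypoxia libraries and 261, 1387 and 296 in control libraries, so the high value rested on many reads. The log2 change was -0.59 ± 0.63 (limma, adjusted p = 0.65, 95% confidence interval -2.01 to 0.83). Without control replicate 2 it was 0.23 (adjusted p = 0.75). The exocrine pancreas markers, at 372 normalized counts in that library, were at 12618 and 120920 in the other controls, and their part in the MT-ND3 value was not tested.

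MT-ND1 (808418), which encodes the subunit that holds much of the quinone channel of complex I, was almost without reads. It had 0 reads in all 3 hypoxia libraries and in control replicates 1 and 2, and 4 reads in control replicate 3. A count of 0 allows up to 3 reads, so no fold is given and the transcript was not tested. Whether its near absence comes from the counting or annotation behind the deposited table was not tested. In control replicate 3 it stood at 4.11 normalized counts per kb, against 344 for MT-ND2, its nearest protein-coding neighbour. How reads that match more than 1 place were treated was not given in the sources used here, so the levels of all 10 transcripts are uncertain where nuclear copies of mitochondrial sequence exist.

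In the oxidase transcripts too each hypoxia library lay below each control library, but none passed limma's threshold. Limma draws each variance toward a trend over all genes tested, so the SEs below are not the spread of these transcripts alone. The catalytic subunit transcript mt-co1 (808417) was at 18935, 17587 and 24455 normalized counts in hypoxia libraries and at 43279, 38448 and 51156 in control libraries. Its mean after hypoxia was 45.9% of the control mean, and the log2 change was -1.13 ± 0.49 (limma, adjusted p = 0.26, 95% confidence interval -2.23 to -0.03).

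The transcript mt-co2 (808422) encodes the subunit that receives electrons from cytochrome c. It was at 25540, 23755 and 32905 normalized counts in hypoxia libraries and at 49671, 49669 and 48097 in control libraries. The controls lay close together and the hypoxia libraries were all below them, with a log2 change of -0.86 ± 0.52 (limma, adjusted p = 0.41, 95% confidence interval -2.03 to 0.31).

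The third core subunit is encoded by mt-co3 (808427), which was at 4446, 4593 and 4954 normalized counts in hypoxia libraries and at 12899, 9860 and 12921 in control libraries. Here the hypoxia libraries lay close together, and the log2 change was -1.34 ± 0.31 (limma, adjusted p = 0.068, 95% confidence interval -2.05 to -0.63). With a minimum mean of 10 the adjusted p of mt-co3 was 0.043, and without control replicate 2 it was 0.047.

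The 2 count tests differed for the oxidase. DESeq2 on the recovered reads called all 3 lower, with adjusted p of 0.00093 for mt-co1, 0.011 for mt-co2 and 1.4e-06 for mt-co3. With edgeR, as with limma, none was called, the adjusted p values being 0.19, 0.29 and 0.076 in the same order. In the authors' deposited table, the adjusted p was 0.0016 for mt-co1, 0.018 for mt-co2 and 6.7e-06 for mt-co3, with 2.06% of its genes lower at an adjusted p under 0.05. Of the 10 transcripts, 8 were lower at that threshold in the authors' deposited table, and the other two were MT-ND1 and MT-ND3.

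Ratios between transcripts within a library, given per 1000 below, do not depend on how the library was scaled. Their log2 differences and permutation tests used a pseudocount of 1, so there the scaling cancels only apart from the pseudocount. Per 1000 normalized counts of mt-co1, MT-ND4 stood at 4.68, 2.78 and 3.83 in hypoxia libraries and at 15.0, 17.9 and 13.8 in control libraries. MT-ND5 stood at 4.62, 3.09 and 7.12 in hypoxia libraries and at 26.9, 15.3 and 16.6 in control libraries. MT-ND6 stood at 4.18, 1.65 and 2.33 in hypoxia libraries and at 15.1, 7.37 and 11.97 in control libraries. In all 3 ratios each hypoxia library was below each control library, with log2 differences of -2.05, -2.01 and -2.10.

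MT-ND2 behaved likewise, at 1.93, 1.04 and 3.19 per 1000 of mt-co1 in hypoxia libraries and 4.19, 7.58 and 7.04 in control libraries, a log2 difference of -1.67. For MT-ND4L the values were 0.125, 0.0435 and 0.133 in hypoxia libraries and 1.30, 0.451 and 0.783 in control libraries, a log2 difference of -2.45 with a pseudocount of 1, -3.10 with none and -1.36 with a pseudocount of 5. Thus 5 of the 8 ratios over mt-co1 had all hypoxia libraries below all control libraries. Of all other genes tested, 0.724% had such a ratio to mt-co1. The exact two-sided permutation p of each of these 5 ratios was 0.10, the smallest that 3 libraries against 3 can give (0.16 adjusted over the 11 ratios computed), so the design could not place them past 0.05.

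Ratios between the oxidase transcripts differed less. Per 1000 of mt-co1, mt-co2 stood at 1349, 1351 and 1346 in hypoxia libraries and at 1148, 1292 and 940 in control libraries. The hypoxia libraries were nearly equal in this ratio and all above the controls, by 0.27 on the log2 scale (exact two-sided permutation p = 0.10), as were 52.3% of all other genes tested. For mt-co3 the ratio was 235, 261 and 203 in hypoxia libraries and 298, 256 and 253 in control libraries, and the groups overlapped (log2 difference -0.21, exact two-sided permutation p = 0.30).

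**Figure D3:**
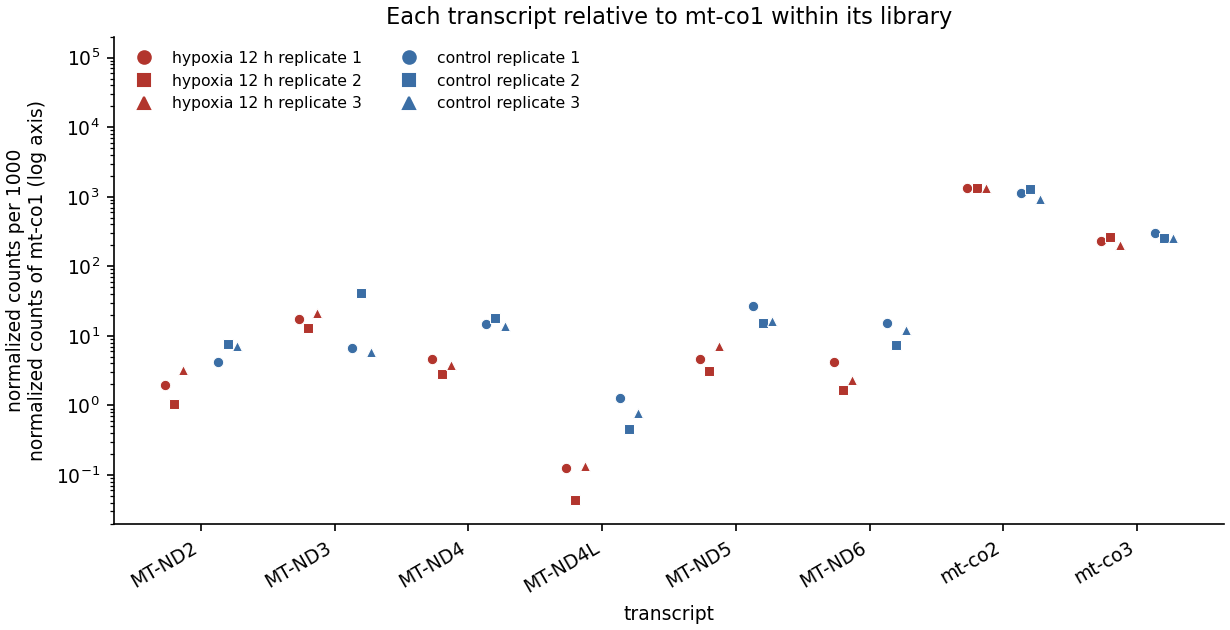
Normalized counts of 8 transcripts per 1000 normalized counts of mt-co1 in the same library (log axis), with hypoxia libraries in red left of control libraries in blue. MT-ND2, MT-ND4, MT-ND4L, MT-ND5 and MT-ND6 are lower in all 3 hypoxia libraries, mt-co2 and mt-co3 are close to their control values, and MT-ND3 overlaps.

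Summed over the 7 complex I transcripts, there were 12.8, 8.21 and 15.0 normalized counts per 1000 of the 3 oxidase transcripts in hypoxia libraries and 28.3, 35.5 and 25.5 in control libraries. The groups did not overlap, with a log2 difference of -1.34. Without MT-ND3 the values were 6.01, 3.30 and 6.52 in hypoxia libraries and 25.6, 19.1 and 22.9 in control libraries, a log2 difference of -2.14.

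MT-ND3 was also set against MT-ND4 and mt-co1. Per 1000 normalized counts of MT-ND4 there were 3747, 4609 and 5652 of MT-ND3 in hypoxia libraries and 441, 2323 and 421 in control libraries. Every hypoxia library was above every control library, by 2.59 on the log2 scale (exact two-sided permutation p = 0.10, 0.16 adjusted over the 11 ratios computed). The denominator MT-ND4 itself changed by -3.18. The share of all genes with such a ratio to MT-ND4 was not computed. For ratios to mt-co1 that share was 52.3%. Relative to mt-co1 the groups overlapped, at 17.5, 12.8 and 21.6 per 1000 in hypoxia libraries and 6.63, 41.7 and 5.79 in control libraries. Control replicate 2 was again the exception, and the hypoxia libraries were above both other controls.

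For the overlapping neighbours within complex I, the ratios did not separate the groups. Per 1000 of MT-ND4 there were 26.7, 15.6 and 34.8 of MT-ND4L in hypoxia libraries and 86.1, 25.1 and 56.9 in control libraries, and the groups overlapped. This ratio differed by -1.03 on the log2 scale with no pseudocount, by -0.39 with a pseudocount of 1 and by 0.63 with a pseudocount of 5. For MT-ND6 per 1000 of MT-ND5 the values were 905, 535 and 327 in hypoxia libraries and 562, 481 and 723 in control libraries. Here too the groups overlapped, and the log2 difference was -0.09, turning to 0.27 without hypoxia replicate 3 and 0.07 without control replicate 3.

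Levels of different transcripts were compared per kb of gene length, with lengths from the RefSeq table of goldfish assembly ASM336829v1. In both groups mt-co2 was highest, at 39653 ± 7019 normalized counts per kb after hypoxia and 71123 ± 1314 in controls. It was followed by mt-co1 at 13105 ± 2346 after hypoxia and 28558 ± 4136 in controls, and by mt-co3 at 5934 ± 333 after hypoxia and 15131 ± 2240 in controls. These 3 kept their order in every library, above all complex I transcripts.

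MT-ND3 came next by its mean, at 1032 ± 439 per kb after hypoxia and 2076 ± 2158 in controls. After hypoxia it stood clear of MT-ND6, at 105 ± 48.1 per kb, whereas in controls, where MT-ND6 was at 990 ± 390, their ranges overlapped. In control replicates 1 and 3 MT-ND6, at 1255 and 1174 per kb, was above MT-ND3, at 817 and 844. The higher control mean of MT-ND3 came from control replicate 2, at 4568 per kb. MT-ND4 was at 55.8 ± 17.7 per kb after hypoxia and 493 ± 19.96 in controls, and MT-ND5 at 57.7 ± 33.9 after hypoxia and 475 ± 158 in controls. These 2 did not differ beyond their spread in either group. MT-ND2 was at 42.4 ± 29.3 per kb after hypoxia and 265 ± 86.2 in controls, and MT-ND4L at 7.16 ± 4.25 after hypoxia and 127 ± 65.5 in controls.

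Over the 12 tested transcripts of the mitochondrial genome, those with the higher mean level per kb of both groups tended to have the smaller fall. That mean contains the hypoxia values, so a larger fall itself lowers it, and part of the relation is built in. The relation to the control level alone was not computed. Spearman's rho between the mean level of both groups and the log2 change was 0.80 over the 12 transcripts and 0.84 over the 11 without MT-ND3. It was 0.72 over the 9 without MT-ND3, MT-ND4L and mt-atp8. This describes transcripts that share libraries and a genome, and they are not independent replicates.

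**Figure D4:**
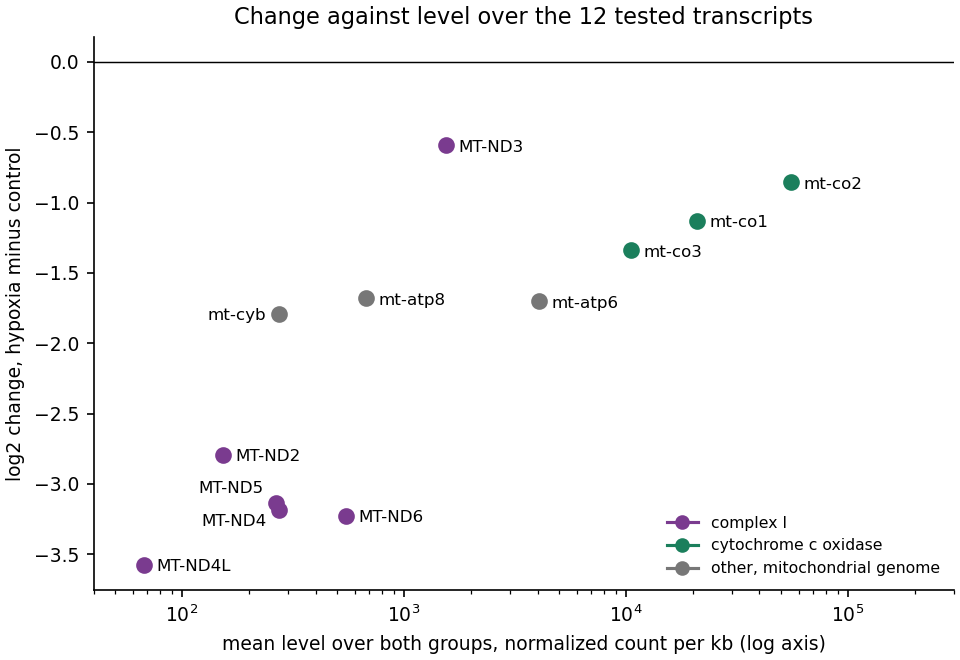
Log2 change, hypoxia minus control, against the mean level of both groups in normalized counts per kb (log axis), 1 point for each of the 12 tested transcripts. The 3 oxidase transcripts lie at the upper right with changes of -0.86 to -1.34, MT-ND2, MT-ND4, MT-ND4L, MT-ND5 and MT-ND6 at the lower left, and MT-ND3 above the rest at -0.59.

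The other 3 protein-coding transcripts of the mitochondrial genome had changes between those of the 5 called complex I transcripts and those of the oxidase, whereas MT-ND3, at -0.59, lay outside that order. Cytochrome b of complex III, mt-cyb (808423), was at 142, 122 and 155 normalized counts in hypoxia libraries and at 575, 407 and 477 in control libraries, a log2 change of -1.79 ± 0.24 (limma, adjusted p = 0.0064). The ATP synthase subunits mt-atp6 (808428) and mt-atp8 (808420) changed by -1.70 ± 0.30 (adjusted p = 0.023) and -1.68 ± 0.38 (adjusted p = 0.061, limma). The call of mt-atp6 was lost in 4 of the 6 fits with 1 library omitted, that is without hypoxia replicate 1 or 2 or control replicate 1 or 3 (the highest adjusted p being 0.13), and with a replicate block (adjusted p = 0.096).

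Nuclear subunits of the same complexes were described beside these, with no test of the difference. Of 80 tested gene copies of nuclear complex I subunits, 3 fell and 0 rose (limma, with 2.24% of all genes called in either direction). They were Ndufc2 (113115312) at -1.44 ± 0.28, Ndufb3 (113053443) at -1.23 ± 0.25 and NDUFA7 (113107837) at -1.15 ± 0.23, with adjusted p of 0.034, 0.042 and 0.044. The median of the 80 was -0.75 (range -3.54 to 2.09), and 75 of them were below 0. In 55 all hypoxia libraries lay below all control libraries, as was the case for 12.2% of all genes tested. A change below -2 was seen in 1 of the 80, against 5 of the 9 tested complex I and oxidase transcripts of the mitochondrial genome. Those 9 were chosen with earlier results of these data known, and -2 lies in the gap between their changes of -1.34 and -2.80. The share of all genes with a change below -2 was not computed. At an unadjusted p under 0.05, limma had 49 of the 80 lower and 0 higher. At an adjusted p under 0.05, edgeR called 0 and DESeq2 called 21 lower, with 3.15% of all genes lower with DESeq2. The limma calls were all lost with a replicate block, and also without any 1 library other than control replicate 2, whose omission gave 6 lower and 1 higher. That omission gave 935 lower and 1425 higher among all 40987 genes tested.

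Of 36 tested copies of nuclear cytochrome c oxidase subunits, from 9 of 18 symbols found, limma called only Cox6b1 (113059951) lower and 0 higher. Among all genes tested, 0.417% were called lower and 1.83% higher. That Cox6b1 copy was at 719 ± 121 normalized counts after hypoxia and 1568 ± 141 in controls (log2 change -1.13 ± 0.24, limma, adjusted p = 0.046). The other copies of this gene changed by -1.01, -0.47 and 0.66. The list had a median of -0.68 (range -1.17 to 2.40), with 30 of 36 below 0, and 19 lower and 1 higher at an unadjusted p under 0.05. All hypoxia libraries lay below all control libraries in 20 of the 36, against 12.2% of all genes tested. They lay above all control libraries in 1, against 12.4%. There were 0 calls with edgeR and 8 lower with DESeq2, where 3.15% of all genes were lower. The limma call was lost with a replicate block and without any 1 library other than control replicate 2. Without that library 2 were called lower, as were 935 of all 40987 genes tested.

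Genes that copy, process and maintain mitochondrial RNA and DNA were not called in limma's test. In that test 0.417% of all genes were called lower and 1.83% higher. Changes below 0 were seen in 18 of 22 copies for transcription, 31 of 42 for RNA processing and 15 of 20 for maintenance. In the same order, all hypoxia libraries lay below all control libraries in 6, 12 and 6 copies, against 12.2% of all genes tested. The reverse held for 0, 1 and 0 copies, against 12.4%. Of 22 tested copies for mitochondrial transcription, 0 rose and 0 fell (3 lower and 0 higher at an unadjusted p under 0.05, 0 with edgeR, 0 with DESeq2), with a median of -0.34. The smallest p values belonged to MTERF4 (113075814), a mitochondrial ribosome biogenesis factor, at -2.70 ± 0.73 (adjusted p = 0.10), and to Mterf3 (113119277), a repressor of mitochondrial transcription in mice, at -0.99 ± 0.35 (adjusted p = 0.18). That MTERF4 copy rests on few reads, at 0, 0.765 and 0.814 normalized counts in hypoxia libraries and at 12.1, 3.47 and 14.0 in control libraries. Another MTERF4 copy (113045361) changed by -0.28, and another MTERF3 copy (113062136) by -1.69. Of 42 tested copies for RNA processing and stability, 0 rose and 0 fell (9 lower and 0 higher at an unadjusted p under 0.05, 0 with edgeR, 2 lower with DESeq2), with a median of -0.35. Elac2 (113101089), which cuts the 3′ ends of transfer RNAs, was at 3.98 ± 2.22 normalized counts after hypoxia and 21.8 ± 5.05 in controls (-2.26 ± 0.57, adjusted p = 0.086), and ptcd2 (113076129) changed by -1.36 ± 0.40 (adjusted p = 0.13). The other Elac2 copies (113067837 and 113054860) changed by -0.53 and 0.19.

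Of 20 tested copies for mitochondrial DNA maintenance, 0 rose and 0 fell in limma's test (3 lower and 0 higher at an unadjusted p under 0.05, 0 with edgeR, 0 with DESeq2), with a median of -0.41. The mitochondrial thymidine kinase TK2 (113106192) was at -1.15 ± 0.36 (adjusted p = 0.14) and the single-stranded DNA binding protein SSBP1 (113064389) at -1.04 ± 0.35 (adjusted p = 0.16). The other TK2 copy changed by -0.005, and the other SSBP1 copies by -1.49, -0.23 and 0.06. Without control replicate 2, limma called 1 of the transcription genes lower, and 2 of the RNA processing genes lower and 1 higher. In that fit 935 of all 40987 genes tested were called lower and 1425 higher.

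**Figure D5:**
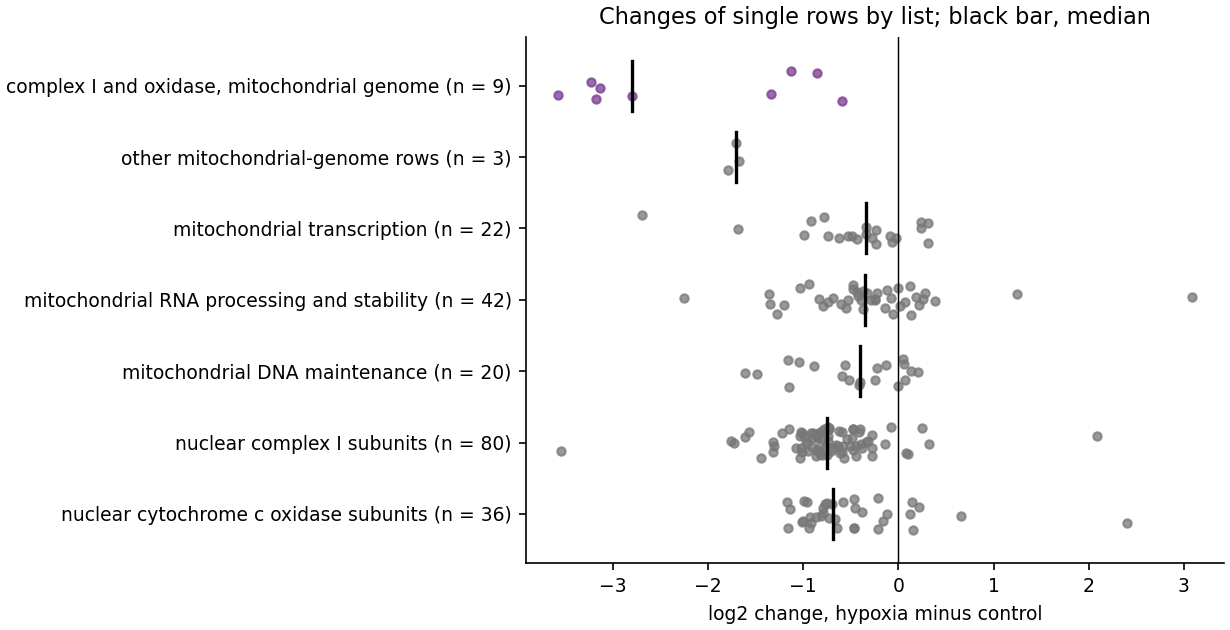
Log2 change, hypoxia minus control, of each tested gene copy (points) in 7 lists, with a black bar at each list's median. The complex I and oxidase transcripts of the mitochondrial genome have a median of -2.80, the nuclear complex I subunits of -0.75 and the genes of mitochondrial transcription of -0.34.

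Markers of other cell types were read beside these changes. Of 16 tested copies of muscle markers limma called 0 lower and 3 higher, a pair of myoglobin copies and tpm1, where 0.417% of all genes tested were called lower and 1.83% higher. Of that pair, 113083552 is annotated as a pseudogene, at 2140 ± 268 normalized counts after hypoxia and 53.8 ± 43.7 in controls. The protein-coding copy 113074004 was at 823 ± 67.6 after hypoxia and 31.3 ± 20.1 in controls. Muscle markers summed to 3052 to 4177 normalized counts in hypoxia libraries and 347 to 523 in control libraries. Nearly all of that difference was myoglobin (mb), at 2637 to 3371 in hypoxia libraries and 41.0 to 213 in control libraries, while creatine kinase ckm was at 2.44 to 11.8 in hypoxia libraries and 5.005 to 24.3 in control libraries. Erythrocyte markers summed to 1815 to 14573 in hypoxia libraries and 1033 to 5951 in control libraries, with 0 of 16 called by limma (1 lower and 2 higher at an unadjusted p under 0.05, 0 with edgeR, 1 lower with DESeq2). Leukocyte markers summed to 25318 to 35728 in hypoxia libraries and 27959 to 59288 in control libraries, with 0 of 18 called by limma (0 lower and 6 higher at an unadjusted p under 0.05, 0 with edgeR, 0 with DESeq2). Most of these sums was cd74, at 19562 to 25118 in hypoxia libraries and 26348 to 52820 in control libraries. The median log2 change of the 18 leukocyte copies was 1.11, with 5 below 0. Endothelial and stellate markers summed to 4159 to 13217 in hypoxia libraries and 4621 to 6655 in control libraries, and the 2 of 32 called higher by limma were copies of kdr, a receptor for vascular endothelial growth factor. Of the 32, limma had 3 lower and 11 higher at an unadjusted p under 0.05. With edgeR 0 were lower and 2 higher, and with DESeq2 1 was lower and 5 were higher. The part of all these markers in the fall of the mitochondrial transcripts was not tested.

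The genes whose levels over the 6 libraries were most like those of single transcripts were looked up among 17762 named genes with a mean of at least 50 normalized counts. For MT-ND4 they were cmtr2, Shpk, HPGD, MRPL55 and NDUFA7, with Pearson's r of 0.995 to 0.997. MRPL55 encodes a mitochondrial ribosomal protein and NDUFA7 a nuclear subunit of complex I. For mt-co1 they were tmem39b, HERC2, GTF2H3, AKT2 and dstyk (r of 0.993 to 0.997), all lower in each hypoxia library. For MT-ND3 they were DHX29, aldh9a1b, Cyp27a1, dthadh and CRAT (r of 0.990 to 0.997). Cyp27a1, a mitochondrial sterol hydroxylase, was at 196, 149 and 275 in hypoxia libraries and at 173, 527 and 199 in control libraries, so it too was highest in control replicate 2. With 6 libraries and so many genes such values are descriptions only.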

How the data were processed

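RNA of 6 liver libraries was analysed, 3 after 12 h of hypoxia and 3 controls, grouped by their titles. Bowtie2 2.2.8 and TopHat2 2.1.1 were used, per the submitters' processing notes, and the counter, genome build and read filters were not given in the sources used here. The signal values deposited by the authors were, despite a file name that says FPKM, counts over 1 size factor per library (100% of values whole within 0.01 of a read) and not by length. The log2 fold changes and p-values in the authors' deposited table come from a test not given in the sources used here.

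All 41045 genes with a mean of at least 1 were fitted with limma 3.58.1 in R 4.3.3, with a mean-variance trend, on log2 of the value plus 1, without a replicate block, and adjusted by Benjamini-Hochberg. The fit was tested on simulated data. Changes are hypoxia minus control. Alternatives were edgeR 4.0.16 and DESeq2 1.42.0 on recovered reads, other pseudocounts, filters and scalings, a replicate block, and leaving out each library. Ratios used exact permutation tests, and MT-ND1, at or under 3 reads in 5 libraries, got none.

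The members and lists were chosen with earlier results of these data known. Named were all members and mitochondrial rows, up to 3 called genes per pathway list with the smallest p, or 2 where none was called, and the 5 genes most like MT-ND4, mt-co1 and MT-ND3. Other genes were named after their values were seen. A list matched a symbol with or without a final a or b. All 46576 numeric identifiers matched the RefSeq gene table of ASM336829v1, used for lengths and gene order. The binomial intervals of read shares and the floor of 3 reads cover counting error only. Limma's confidence intervals come from its variance between libraries, drawn toward a trend.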

Additional observations from a re-analysis of the deposited data

How the results depend on the processing

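The number of tested transcripts called lower was 5, and 5 or 6 under other pseudocounts, filters and scalings, 5 with edgeR, 8 with DESeq2, and 3 to 6 when 1 library was left out, and 0 were called higher under any of these. Among all genes tested, 121 to 274 were lower under those pseudocounts, filters and scalings, 166 with edgeR and 1062 with DESeq2. With 1 library left out, 36 to 57 of all genes were lower, except without control replicate 2. That fit gave the 6, with 935 of 40987 genes lower and 1425 higher. A replicate block left 4 of the tested transcripts lower, with 61 of all genes called lower, against 171 without it. The replicate numbers gave no sign of pairing: same-numbered libraries had correlations of deviations of -0.07, -0.19 and -0.03, and no library correlated best with its own number. The block left 1 call among the 3 other transcripts of the mitochondrial genome, 0 among nuclear complex I subunits and 0 among nuclear oxidase subunits, against 2, 3 and 1. With edgeR both nuclear lists had 0 calls. Leaving out 1 library gave 1 to 3 calls for the other mitochondrial transcripts, 0 to 7 for nuclear complex I, 0 to 2 for the nuclear oxidase, 0 to 1 for transcription and 0 to 3 for RNA processing, the highest each time without control replicate 2. MT-ND3 changed by -0.59, and by -1.01 to 0.23 with 1 library left out, the highest being without control replicate 2. The summed complex I to oxidase ratio differed by -2.14 without MT-ND3, against -1.34, and by -1.09 to -1.52 with 1 library left out. The ratio of MT-ND4L to MT-ND4 was -1.03 with no pseudocount and turned to 0.63 with a pseudocount of 5, and that of MT-ND6 to MT-ND5 lay between -0.45 and 0.27 with 1 library left out, being 0.27 without hypoxia replicate 3 and 0.07 without control replicate 3. The cause of these changes was not tested. The other results kept their direction. Depth limits MT-ND4L (7 reads after hypoxia), and MT-ND1, with 4 reads in all, allowed no test.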
